A study of Mus musculus with 8 samples.

Results

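Fibrillar collagens and the proteins that fold, modify and trim them were followed in primary mouse hepatic stellate cell cultures as the probes of 10 named genes, Col1a1, Col1a2, Col3a1, Col5a1, Col5a2, Serpinh1, P4ha1, P4ha2, Plod2 and Pcolce. Every probe whose symbol in the platform annotation is one of these names was taken, which gave 11 of the 25697 probes on the array, 1 per gene except for 2 to Col3a1, and 10 of the 16593 genes named there. Hepatic stellate cells are the vitamin A-storing pericytes of the liver, which become matrix-producing myofibroblasts after injury and in culture. The knockout cultures (labelled IL15Ra-knockout, 4 samples) came from 6-week-old B6/129 mice, labelled female, without a functional interleukin-15 receptor alpha gene. The control cultures (4 samples) came from wild-type B6/129 mice of that age, also labelled female. All cultures shared the pronase and collagenase digestion, the Percoll gradient, medium with 20% serum and RNA extraction at passage 0, and no sample is labelled as treated or injured. The labels do not say whether each sample is a separate animal, so every p-value here rests on the spread among these samples, part or all of which may be technical. The series asks whether this receptor governs how fibrogenic the cells are.

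Fibrillar collagens are long triple helices that bundle into the fibres of scar and connective tissue. Type I collagen, the main collagen of fibrotic liver, joins a pair of alpha-1 chains (Col1a1) with a single alpha-2 chain (Col1a2), type III collagen is a homotrimer of Col3a1 chains, and type V collagen (Col5a1, Col5a2) nucleates fibrils and limits their diameter. In the endoplasmic reticulum, prolyl 4-hydroxylases (P4ha1, P4ha2) stabilise the helix, a lysyl hydroxylase (Plod2) prepares telopeptide lysines for cross-links, and the chaperone HSP47 (Serpinh1) escorts the folded molecule. After secretion, the enhancer protein Pcolce speeds removal of the C-terminal propeptide.

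Each sample was hybridised to 1 Illumina bead array, and a probe counted as above background where its deposited detection p-value was under 0.05. Between 6760 and 10516 probes were above background per array, with the fewest on control 3 (6760), knockout 1 (7765) and knockout 4 (7830), and these 3 arrays lay apart from the other 5 on the first principal component (78.2% of the variance). Results that rest on them are given with and without them. No Il15ra probe was above background on any array (4 probes, lowest detection p 0.178), so the targeted gene does not check the labels. The mice are labelled female, but 3 probes of Y-linked genes were above background on all 8 arrays and neither of 2 Xist probes was on any. Among stellate cell markers Des, Reln and Hgf were above background on all arrays and Lrat on none. The brightest macrophage markers, Adgre1 and Lyz2, had group means between 13.66 and 13.83 on the normalised log2 scale. The dimmest, C1qa, had means of 5.74 in the knockout and 5.96 in the control samples. Each of the 8 probed macrophage markers was above background on at least 4 arrays, so no value below can be assigned to the stellate cells alone. In such samples fewer cells of a type and less RNA per cell cannot be told apart.

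Of the 11 probes, 9 were above background on at least 4 of the 8 arrays and were tested together with all 9433 such probes. Only 1 passed an adjusted p of 0.05, Col1a2, which rose. Over all tested probes 0.53% passed, 0.233% higher and 0.297% lower in the knockout cultures. Of the 9 tested probes 3 lay above 0 and 6 below 0, with a median log2 difference of -0.17 against 0.033 over all tested probes. The groups did not overlap at 1 of the 9, Col1a2, and at 5.02% of all tested probes.

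**Figure D1:**
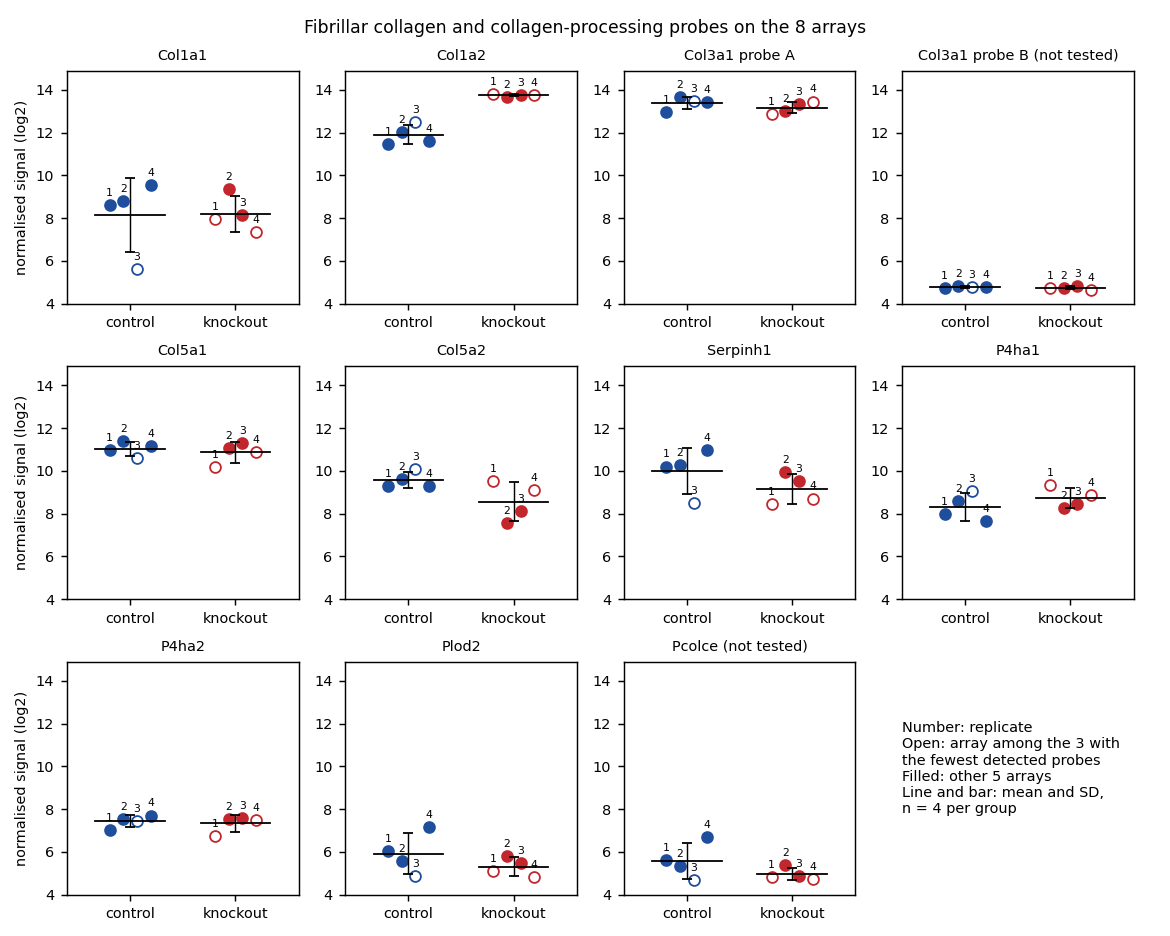
Normalised signal (log2) of the 11 probes on each array, with control samples in blue and knockout samples in red, replicate numbers above the points, and the mean and SD of 4 samples as line and bar. Open points mark the 3 arrays with fewest probes detected. Col1a2 is the panel in which all 4 knockout values lie above all 4 control values.

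Col1a2, the alpha-2 chain of type I collagen (chromosome 6, 4505618 to 4541543, GRCm38.p6), was 3.57-fold higher in the knockout cultures (log2 difference 1.84, 95% interval 1.38 to 2.29, limma adjusted p = 0.00478). Its deposited signals were 13747, 12347, 13113 and 13866 on knockout arrays 1 to 4. On control arrays 1 to 4 they were 3068, 4230, 6666 and 3895. The highest control value, on control 3, lay below every knockout value. On the normalised log2 scale the means were 13.74 ± 0.044 in the knockout and 11.90 ± 0.45 in the control samples (SD, n = 4 each), so nearly all of the spread lay among the controls. By p-value 12 tested probes came before it. The call held without each array in turn, with log2 differences between 1.70 and 2.03 and adjusted p-values between 0.000268 and 0.0336. It held as well without control 3, knockout 1 and knockout 4 together (log2 difference 2.00, adjusted p = 0.00109).

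The knockout signals of Col1a2 lay near the top of the scale. They were 0.45 to 0.78 log2 units under the highest signal of the same array, and the probe ranked between 70 and 92 from the top of 25697. On control arrays the distance was 1.47 to 2.63 log2 units and the rank 414 to 976. Whether signals this close to the top still scale with the amount of RNA was not tested. Col1a2 was measured by 1 probe, and no second probe checks its difference.

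Markers of several cell types were read beside Col1a2, and their part in its difference was not tested. Of the listed markers only Reln, H2-Aa and H2-Ab1 passed the test. The summed level of 7 mesothelial and portal fibroblast markers was 9006 to 13142 normalised signal units on the knockout and 6257 to 8557 on the control arrays. None of the 7 genes passed the test, and 6 lay above 0. An unadjusted limma p under 0.05 was found for 3 of the 7, against 6.31% of all tested probes. The groups did not overlap at 1 of the 7, Thy1, against 5.02% of all tested probes. Thy1, a surface marker of portal fibroblasts, had a log2 difference of 0.66 (adjusted p = 0.271), Wt1, a mesothelial transcription factor, of 0.49 (adjusted p = 0.721), and Msln, which encodes mesothelin, of 0.98 (adjusted p = 0.677). Upk3b, another mesothelial gene, had a difference of 0.29 (adjusted p = 0.944), and Fbln1, the 1 marker of the 7 below 0, of -0.19 (adjusted p = 0.938). The summed level of 9 stellate cell markers ran the other way, at 1408 to 2277 in the knockout and 2885 to 4397 in the control samples, and 5 of the 9 were above background on no array. Of the 4 tested, only Reln, which encodes reelin, passed, and it fell (log2 difference -1.61, adjusted p = 0.0289). Its log2 means were 9.42 in the knockout and 11.03 in the control samples, against 10.05 and 10.17 for Des. The gap between the stellate sums was thus mostly that of Reln. Des had a difference of -0.13 (adjusted p = 0.932) and Pdgfrb of -0.83 (adjusted p = 0.894). The 8 macrophage markers summed to 34327 to 39036 in the knockout and 35240 to 40938 in the control samples, overlapping, and 0 of 8 passed. That sum was mostly one of Adgre1 and Lyz2. Of the 8, 2 lay above 0 and 6 below, with a median log2 difference of -0.36. Adgre1 had a log2 difference of 0.018 (adjusted p = 0.956) and Clec4f, a Kupffer cell lectin, of -1.29 (adjusted p = 0.796). Of 9 endothelial markers, summed at 1382 to 3865 and 1812 to 3715, 0 of 6 tested passed and all 6 lay below 0. An unadjusted limma p under 0.05 was found for 2 of these 6. Lyve1 had the largest difference of them, -1.54 (adjusted p = 0.355), Pecam1 had one of -0.74 (adjusted p = 0.828) and Stab2 of -0.66 (adjusted p = 0.667), and Cdh5 was above background on no array. Of 7 hepatocyte markers, summed at 144 to 401 and 88.7 to 304, only Ttr was tested (log2 difference 0.86, adjusted p = 0.913), and Alb and Apoa1 were above background on no array. Krt7, at a log2 difference of 0.57 (adjusted p = 0.837), was the single tested marker of cholangiocytes, which summed to 298 to 379 in the knockout and 182 to 278 in the control samples, and Krt19 was above background on no array. Dendritic cell markers were summed at 1306 to 1950 in the knockout and 13710 to 26629 in the control samples, and 2 of 4 tested fell, H2-Aa and H2-Ab1, which encode MHC class II chains. Cd74, the class II invariant chain, had a difference of -4.37 (adjusted p = 0.103) and Itgax, the CD11c integrin chain, of -1.14 (adjusted p = 0.913). The other 3 of the list, Flt3, Xcr1 and Ccr7, were above background on no array, so that sum is mostly one of class II genes.

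Col1a1, the alpha-1 chain (chromosome 11, 94936224 to 94953042), showed no difference that could be told from its spread. Its signals were 217, 746.6, 377.7 and 209.0 on knockout arrays 1 to 4. They were 567.7, 567.8, 167.0 and 1218 on control arrays 1 to 4. The groups overlapped fully, and the lowest values came from the arrays with few detected probes, knockout 4, knockout 1 and control 3, on the last of which the probe was not above background (detection p 0.150). The log2 means were 8.21 ± 0.84 in the knockout and 8.15 ± 1.72 in the control samples (SD, n = 4 each). The log2 difference was 0.055 with a 95% interval of -1.77 to 1.88 (limma adjusted p = 0.987), an interval that contains the difference measured for Col1a2. Without control 3 the log2 difference was -0.78 (adjusted p = 0.279), and without all 3 of these arrays it was -0.23, with an interval of -1.18 to 0.72.

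The changes of both chains were also set against each other within each array. The log2 value of Col1a2 minus that of Col1a1 was 5.53 ± 0.88 in the knockout and 3.75 ± 2.11 in the control samples (SD, n = 4 each). It ran from 4.31 to 6.38 in the knockout and from 2.07 to 6.84 in the control samples, so the groups overlapped. The 6.84 came from control 3, where the Col1a1 probe was not above background. The 1.78 difference had a two-sided exact permutation p of 0.171 over 70 assignments, where 0.0286 is the smallest the design allows. Without control 3 the difference was 2.81 (exact permutation p = 0.0571). Without control 3, knockout 1 and knockout 4 together it was 2.23 (exact permutation p = 0.1). That is the smallest p the remaining arrays allow, so a p under 0.05 was out of reach there. A larger change of Col1a2 than of Col1a1 was thus not shown by these 8 arrays.

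Col3a1, the chain of type III collagen (chromosome 1, 45311538 to 45349706), was bright in both groups on 1 of its 2 probes. Signals of that probe were 6908, 7653, 9619 and 11344 on knockout arrays 1 to 4. On control arrays 1 to 4 they were 8334, 13038, 13040 and 12036. The groups overlapped, as control 1 lay below 2 of the knockout samples. On the log2 scale the means were 13.17 ± 0.26 and 13.38 ± 0.28 (SD, n = 4 each), and the difference of -0.21 had a 95% interval of -0.60 to 0.18 (limma adjusted p = 0.913). This is the narrowest interval of the 9, and it bounds a fold between 0.66 and 1.13. The probe lay 0.74 to 1.47 log2 units under the top in the knockout and 0.50 to 1.19 in the control samples, and scaling near the top was likewise not tested. The second probe, ILMN_2683958, gave signals between 103.5 and 131.5 on the 8 arrays, where its lowest detection p was 0.323, and was not tested.

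**Figure D2:**
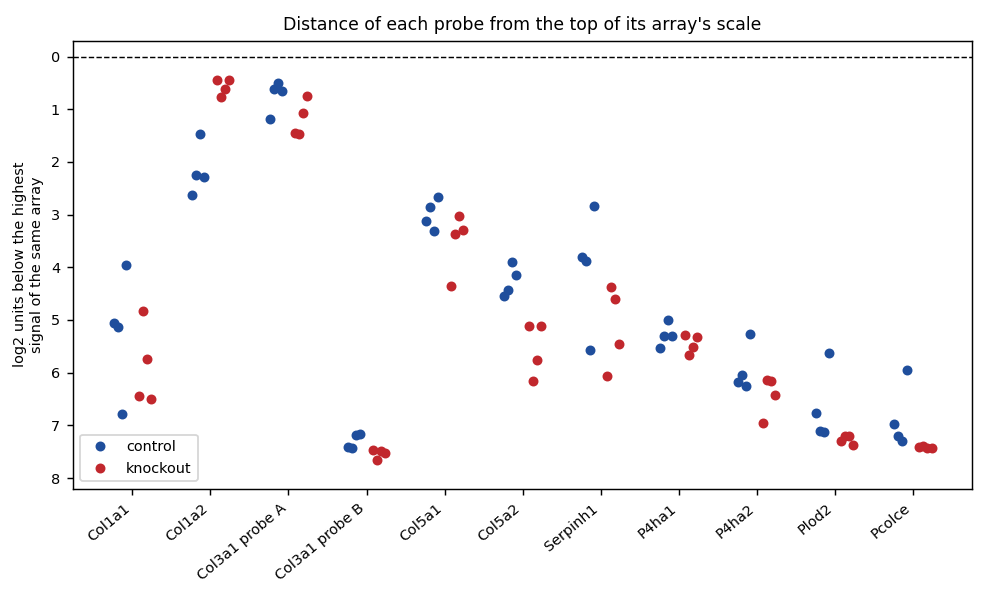
Distance of each probe from the highest signal on the same array, in log2 units of deposited signal with the top of the scale at 0, for 4 control (blue) and 4 knockout (red) samples. Col1a2 in knockout samples and the bright Col3a1 probe in both groups lie within 1.5 units of the top, and the dim Col3a1 probe lies 7.17 to 7.65 units under it.

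Neither chain of type V collagen, which co-assembles with type I, passed the test on all 8 arrays. Col5a1 (chromosome 2, 27886381 to 28039510) had signals of 913.0, 2036, 2473 and 1938 on knockout arrays 1 to 4. The control signals were 2183, 2765, 1863 and 2971. The groups overlapped, with knockout 1 lowest of all. Its log2 means were 10.87 ± 0.47 and 11.04 ± 0.33 (SD, n = 4 each), and the difference was -0.17 with an interval of -0.77 to 0.43 (limma adjusted p = 0.914).

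Col5a2 (chromosome 1, 45374331 to 45503282), which neighbours Col3a1 on the chromosome, had the lowest difference of the tested members. Its signals were 543.7, 296.4, 369.5 and 548.8 on knockout arrays 1 to 4. On the control arrays they were 813.9, 925.4, 1235 and 1065. On these deposited signals every knockout value lay below every control value, and at 11.1% of all tested probes the groups lay apart in 1 direction or the other. After normalisation the groups overlapped, because knockout 1, at 9.51, lay above control 1 (9.28) and control 4 (9.28). The log2 means were 8.57 ± 0.90 in the knockout and 9.56 ± 0.38 in the control samples (SD, n = 4 each), a difference of -0.99 with an interval of -1.99 to 0.0053 and a limma adjusted p of 0.795 that did not pass.

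The Col5a2 call turned on the arrays with few detected probes. With detected-probe number as a covariate, its log2 difference was -1.06 (interval -1.57 to -0.56, adjusted p = 0.0182). Without knockout 1, knockout 4 and control 3 it was -1.56 (interval -2.15 to -0.96, adjusted p = 0.0274). Among those 3 arrays alone, 2 knockout and 1 control, the difference was -0.76. These fits passed 7.1% and 1.79% of all tested probes, and in each 2 of the 9 members were among them, Col1a2 and Col5a2, in opposite directions. The difference was below 0 in both classes of array.

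**Figure D3:**
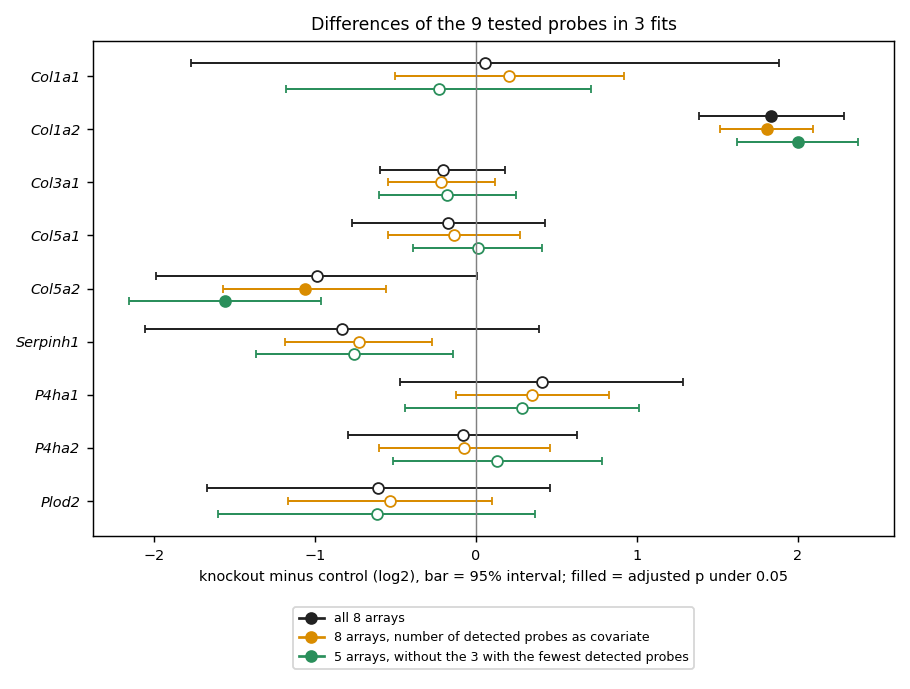
Log2 difference, knockout minus control, of the 9 tested probes with 95% intervals, fitted on all 8 arrays (black), on 8 arrays with detected-probe number as a covariate (orange) and on the 5 arrays left without the 3 with fewest probes detected (green). Filled points have an adjusted p under 0.05. Col1a2 is filled in all 3 fits and Col5a2 in the second and the third.

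For the fibrillar chain genes with an entry, the 250 bases before the start used by the promoter table are shown, since Col1a2 changed while Col3a1 and Col5a1 did not pass. They are RefSeq sequence of GRCm38.p6, written 5′ to 3′ on the gene's strand, at chr6:4505368-4505617 for Col1a2, chr1:45311288-45311537 for Col3a1 and chr2:27886175-27886424 for Col5a1, all on the plus strand. The table's start is not always the outermost end of the gene given above, and the last 44 bases of the Col5a1 window lie inside the gene. Capitals mark matches, on either strand, to CCAAT (the box bound by NF-Y) and to GGGCGG (the GC box bound by Sp1).
Col1a2: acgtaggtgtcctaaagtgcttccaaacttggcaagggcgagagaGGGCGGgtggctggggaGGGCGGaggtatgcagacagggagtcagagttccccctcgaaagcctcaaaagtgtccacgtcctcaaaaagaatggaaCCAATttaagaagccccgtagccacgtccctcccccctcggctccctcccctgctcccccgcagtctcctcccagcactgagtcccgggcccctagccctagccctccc
Col3a1: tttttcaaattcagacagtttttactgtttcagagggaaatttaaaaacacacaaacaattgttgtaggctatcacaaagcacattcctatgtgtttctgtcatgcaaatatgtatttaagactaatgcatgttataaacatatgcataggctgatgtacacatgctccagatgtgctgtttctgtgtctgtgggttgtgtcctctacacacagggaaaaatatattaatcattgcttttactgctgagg
Col5a1: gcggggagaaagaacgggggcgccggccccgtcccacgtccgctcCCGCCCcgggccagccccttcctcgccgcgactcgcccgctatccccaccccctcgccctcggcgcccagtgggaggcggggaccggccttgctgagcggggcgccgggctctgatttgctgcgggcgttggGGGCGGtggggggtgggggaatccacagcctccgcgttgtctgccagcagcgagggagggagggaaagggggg

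Of the 10 genes 7 matched the promoter table, and Col1a1, Col5a2 and Plod2 are named only. The windows of P4ha1 and Pcolce reach 99 and 118 bases into the gene, and those of the other 4, Col1a2, Col3a1, Serpinh1 and P4ha2, end at its annotated edge. CCAAT was found once, 109 bases before the start of Col1a2, and in 0 of the other 6 windows, against 33.8% of all 32851 promoter windows of this length. GGGCGG was found at 2 places for Col1a2, Col5a1 and P4ha2, at 1 for Serpinh1, P4ha1 and Pcolce and at 0 for Col3a1, against 32.7% of all windows. TATAAA matched in Col3a1 alone (12.4% of all windows), and the AP-1 site TGANTCA in none of the 7 (6.75%). The SMAD element CAGAC was found in Col1a2, Col3a1, Col5a1 and Serpinh1 (42.2% of all windows). The base composition of the windows ranged from 35.2% G and C for Col3a1 to 76.4% for Col5a1. These matches are letters in a window, not sites shown to be bound.

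Serpinh1, which encodes the collagen chaperone HSP47 (chromosome 7, 99345375 to 99353239), had a lower mean in the knockout cultures without passing the test. Its signals were 279.7, 1020, 827.6 and 431.1 on knockout arrays 1 to 4. On control arrays 1 to 4 they were 1359, 1366, 388.0 and 2643. The 3 lowest values of all 8 came from knockout 1, control 3 and knockout 4. The log2 means were 9.16 ± 0.69 and 9.99 ± 1.06 (SD, n = 4 each), with a difference of -0.83 and an interval of -2.05 to 0.39 (limma adjusted p = 0.913). With the covariate the difference was -0.73 (adjusted p = 0.0616), and without the 3 arrays it was -0.76 (adjusted p = 0.292), so neither passed. Among those 3 arrays alone, 2 knockout and 1 control, the difference was 0.0997.

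The alpha subunits of prolyl 4-hydroxylase did not pass. P4ha1 (chromosome 10, 59323197 to 59373304) had signals of 479.7, 414.9, 442.1 and 474.2 on knockout arrays 1 to 4. The control signals were 410.3, 506.2, 573.6 and 475.4. All 8 lay between 410.3 and 573.6, and the groups overlapped. Its log2 difference was 0.41 (8.73 ± 0.48 against 8.32 ± 0.64, SD, n = 4 each), with an interval of -0.47 to 1.29 (limma adjusted p = 0.913). P4ha2 (chromosome 11, 54100924 to 54131668) had signals of 151.0, 298.5, 282.8 and 221.7 in the knockout samples. In the control samples they were 262.1, 304.7, 239.9 and 488.8. The groups overlapped again, with knockout 1 lowest and control 4 highest. Its log2 difference was -0.083 (7.35 ± 0.39 against 7.43 ± 0.29, SD, n = 4 each), with an interval of -0.80 to 0.63 (limma adjusted p = 0.953).

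Plod2 and Pcolce were above background on 4 and on 3 of the 8 arrays. Plod2, the telopeptide lysyl hydroxylase (chromosome 9, 92539636 to 92608428), was above background on 1 knockout and 3 control arrays, just inside the filter. Its signals were 118.7, 143.1, 137.3 and 114.2 in the knockout samples. The control samples gave 175.3, 145.3, 132.3 and 383.4, and control 4 stood above the rest. The log2 difference of -0.61 (5.32 ± 0.43 against 5.92 ± 0.97, SD, n = 4 each) had an interval of -1.67 to 0.46 (limma adjusted p = 0.913). Pcolce, the procollagen C-endopeptidase enhancer (chromosome 5, 137605105 to 137611522), was above background on knockout 2, control 1 and control 4, just outside the filter, and was not tested. Its signals were 110.1, 126.2, 116.4 and 109.9 in the knockout samples. The control samples gave 151.8, 135.4, 116.6 and 306.8, where control 4 again stood alone. With 1 or 2 samples of a group above background, no fold is given for Pcolce.

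The members did not vary alike with the number of detected probes inside the groups. On the normalised log2 scale, Col1a1, Col5a1, Serpinh1, Plod2 and Pcolce were lowest in knockout 1 and knockout 4 among the knockout arrays and in control 3 among the controls. Col1a2, Col5a2 and P4ha1 were highest in the same arrays of each group. Neither held for the Col3a1 probes and P4ha2. On the deposited signals, the 3 arrays gave the 3 lowest of all 8 values at 5 of the 11 probes, Col1a1, Col5a1, Serpinh1, P4ha2 and Plod2. Among these 3 arrays alone, the knockout minus control difference was 1.29 for Col1a2, against 2.00 among the other 5. For Col1a1 no such pair of values is given, since its probe was not above background on control 3, the 1 control array of the 3.

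Probes whose profile over the 8 arrays lay nearest to those of the type I chains were named by the root mean square difference of centred log2 values. Nearest to Col1a2 were Pdpn, which encodes podoplanin (0.237 log2 units), Haus1 of the augmin complex (0.282), the cGMP-dependent kinase gene Prkg2 (0.301), Pamr1 (0.305) and Plekhb1 (0.306). Their log2 differences were 1.50 for Pdpn, 1.70 for Haus1, 1.31 for Prkg2, 1.31 for Pamr1 and 1.62 for Plekhb1. A likeness to Col1a2 over these 8 arrays fixes a difference near its own, so these values are a description. Nearest to Col1a1 were the laminin chain gene Lamb1 (0.175), Psmg2 (0.190), Pigp (0.206), Pnp (0.206) and Esd (0.208), whose log2 differences lay between -0.23 and 0.0094. No other member was among these.

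Other genes of collagen assembly and turnover were listed in 6 groups of 60 names together. A probe existed for 53 of them, and 31 were bright enough to be tested. None of the 31 passed the limma test, 0 had an unadjusted p under 0.05 (6.31% of all tested probes), and 18 lay above 0 and 13 below 0, with a median log2 difference of 0.081 against 0.033 over all tested probes, of which 0.53% passed. The groups did not overlap at 1 of the 31, Trappc2, a gene of the TRAPP trafficking complex, at -0.38 (adjusted p = 0.913), against 5.02% of all tested probes. The other 22 probed genes were too dim on these arrays to be tested.

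Among other fibrillar chains, Col24a1 had a log2 difference of 0.71 (adjusted p = 0.913) and Col11a2 of -0.20 (0.942), and the probes of Col2a1, Col11a1 and Col27a1 were above background on no array. Of the fibril-associated chains, Col16a1 had a difference of 0.31 (adjusted p = 0.913) and Col9a1 of 0.050 (0.984). Of 11 tested genes of hydroxylation, glycosylation and folding, 5 lay above 0 and 6 below. P3h4, a partner of the lysyl hydroxylase complex, stood at 0.42, Fkbp14, a prolyl isomerase, at -0.29, and Tmem38b, a channel of the endoplasmic reticulum, at -0.44, each with an adjusted p of 0.913. P4hb, the beta subunit that pairs with the products of P4ha1 and P4ha2, had a difference of -0.14 (adjusted p = 0.953). The other lysyl hydroxylases, Plod1 and Plod3, were at 0.087 (0.956) and -0.098 (0.913).

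Of 6 tested export genes, Ctage5, a partner of the collagen export receptor TANGO1, had a difference of -0.23 and Sec13, a COPII coat subunit, of 0.11, both with an adjusted p of 0.913. Of 3 tested genes of propeptide removal, Bmp1, the procollagen C-proteinase, stood at -0.073 (adjusted p = 0.950), Pcolce2 at 0.17 (0.929) and Mep1b at 0.31 (0.913). Among 7 tested genes of collagen uptake and breakdown, Itga11, the alpha chain of a collagen-binding integrin, had the largest difference, 1.13 with an interval of -0.087 to 2.34 (8.04 ± 0.54 against 6.91 ± 1.05, SD, n = 4 each, adjusted p = 0.853). With detected-probe number as a covariate, Itga11 passed (1.04, adjusted p = 0.0329), the only 1 of the 31 to do so in that fit, which passed 7.1% of all tested probes. Fap, fibroblast activation protein, stood at 0.73 (adjusted p = 0.891) and Prep, a prolyl oligopeptidase, at 0.36 (0.913).

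**Figure D4:**
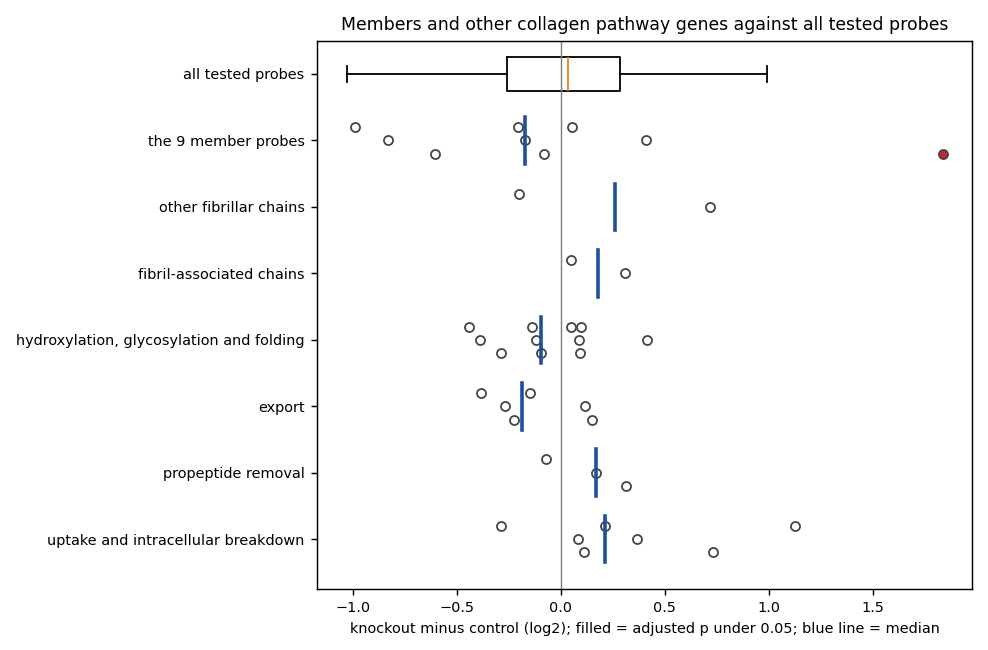
Log2 difference, knockout minus control, of the 9 tested members and of 31 other collagen pathway genes by group, with the blue line at each median and a filled point where the adjusted p is under 0.05. The box gives all 9433 tested probes with quartiles at -0.26 and 0.29 and whiskers at the percentiles 2.5 (-1.03) and 97.5 (0.99). Col1a2 is the filled point and lies beyond the upper whisker.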

How the data were processed

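Total RNA of the 8 cultures was hybridised to Illumina MouseRef-8 beadchips with 1 colour. The deposited intensity values are raw mean bead signals, per the file headers and values. The deposited detection p-value was taken to compare a probe with the negative-control beads of its array. The file headers name it only as a detection p-value. The authors' second table of intensity values was quantile normalised, per the series' design text; scans were read with GenomeStudio (version 3, per the submitters' processing notes). Groups and replicate numbers came from the titles. Chip positions were not used here.

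Background correction and quantile normalisation used neqc (limma 3.58.1, R 4.3.3, offset 16, log2 values). The offset draws folds of dim probes towards 1. The 9433 probes above background (detection p under 0.05) on 4 or more arrays were fitted with lmFit and trended eBayes, and p-values were adjusted over all of them by Benjamini-Hochberg. Intervals are 95%. The fit was run on simulated data with noise drawn independently for each probe and array. Differences shared by the probes of an array were not simulated. Platform symbols were looked up by Entrez number (0 changed). Lists used the brightest tested probe of a gene; summed marker levels are linear normalised signals, less the offset, of 1 probe per gene. Every member was named, and of each other list all genes that passed and up to 3 others by p or the first markers. Genes named beyond that (P4hb, Plod1, Plod3, Lrat, Hgf, Lyz2, C1qa, Thy1, Fbln1, Lyve1, Itgax, Flt3, Xcr1, Ccr7) were chosen after their values were seen. Members and lists were chosen with earlier results of these data known. Alternatives are in the closing section; the number of arrays limits the precision.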

Additional observations from a re-analysis of the deposited data

Results flagged for a closer look

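P4ha2 on knockout 1 stood apart from the other knockout samples. Its normalised log2 value was 6.76, while the other 3 lay between 7.51 and 7.57, a gap of 0.925 of the range of the group. Knockout 1 is among the 3 arrays with fewest probes detected. Of the 22 groups of 4 samples looked at, this was the only 1 with such a gap, and chance alone gives about 1 in 20.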

How the results depend on the processing

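Col1a2 stayed higher under all 21 alternatives, with log2 differences from 1.70 to 2.09, and kept its call in 20. Same-numbered samples deviated together in 1 of 4 pairs (correlations -0.658, 0.597, -0.746 and -0.815 for replicates 1 to 4), so the numbers were not taken as pairs. With the replicate number as a block (replicate block) the adjusted p was 0.0667, and 0 members and 3 probes in all passed. The count over all probes was 22 at an adjusted p under 0.01, 108 with median scaling, which moved the median of all probes to -0.099, 95 with cyclic loess, 17 where every array had to reach a detection p under 0.01, 670 with detected-probe number as a covariate and 169 without the 3 arrays with fewest probes detected. Members that passed numbered 2 in the last 2 fits, and 1 pathway gene passed with the covariate. Higher and lower calls stood at 60 and 48 with median scaling, 52 and 43 with cyclic loess, and 402 and 268 with the covariate, against 22 and 28. Array weights, whose estimation stopped before it converged, passed 3632 of all 9433 tested probes. Among them were 4 of the 9 tested members (Col1a2, Col5a2, Serpinh1 and Plod2) and 12 of the 31 tested pathway genes. The difference between both chains was then 2.62 with a permutation p of 0.0286. That p is not exact, because the weights were fitted with the true groups and kept fixed while the groups were permuted. Without each array in turn the count over all probes ran from 22 to 123 (123 without control 3), members stayed at 1, pathway genes at 0, and the chain difference ran from 1.22 to 2.81 with no call.

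The small differences of 4 members changed sign, none past the threshold. Col1a1 was at -0.0996 without background correction, -0.032 with an offset of 50, -0.29 with median scaling, -0.17 with cyclic loess, -0.082 with the authors' values, -0.53 with array weights, -0.23 without the 3 arrays, and between -0.78 and 0.52 without each array. Col5a1 was at 0.20 with array weights, 0.011 without the 3 arrays and between -0.32 and 0.050 without each array. P4ha2 was at 0.34, 0.13 and between -0.22 and 0.11 in the same fits, and Col3a1 at 0.12 with array weights. The causes were not tested. A second probe pair for the chains was not run, since Col1a1 and Col1a2 have 1 probe each. Dim signals limit Plod2 and Pcolce.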
